A study of Drosophila melanogaster with 12 samples.

Results

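The genes described here are 37 genes of oocyte determination, axis patterning and maternal mRNA control in Drosophila melanogaster, taken from a list of gene names and matched by FlyBase identifier to the 14413 features counted in whole-fly RNA. All 37 genes were found, 36 of them with a feature of their own, and all 37 passed the filter on low counts in every comparison. Flies of the iso31 strain were kept on sucrose-agar food under either a 28-h schedule of 14 h light and 14 h dark, which is chronic circadian misalignment (CCM), or a 24-h control schedule of 12 h light and 12 h dark. RNA was taken shortly after lights-on from CCM-exposed flies at week 3, control flies at week 3, CCM-exposed flies at week 2 and control flies at week 2, with 3 samples (A, B and C) in each group. Each sample pooled 10 males and 10 females, so ovary RNA was only a portion of the RNA measured. The tissue or sex that the RNA of each gene came from was not measured, and fewer ovarian cells cannot be told apart from less RNA per cell. The time spent on a schedule and the age of the flies also cannot be told apart in the comparisons of week 3 with week 2.

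In the Drosophila ovary, germline stem cells divide to form cysts in which a single cell becomes the oocyte and its sister nurse cells supply it with RNA and protein. Many of these RNAs are carried along microtubules to a particular end of the oocyte, kept untranslated on the way, and translated only where they are anchored, which places the future head, abdomen, back and germ cells of the embryo. After egg activation the maternal RNAs drive early development and are then removed by deadenylation, the shortening of the poly(A) tail.

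The deposited values were raw counts, with 17842804 to 23687266 counts per sample. Totals were 21506910 to 21925648 in CCM flies at week 3 and 17842804 to 19162218 in control flies at week 3. Levels are given as CPM, the counts scaled to a common library total, after trimmed mean of M-values (TMM) scaling over the 12 samples, and a change was called at an adjusted p under 0.1 by edgeR (quasi-likelihood test), adjusted over all features tested by the Benjamini-Hochberg method. The pathway and marker lists set beside the 37 genes had been chosen with earlier results of these data known. The germline marker vas was not matched, whereas osk, nos and bcd, which also mark the female germline, were counted in every sample. The RNA of 16 eggshell genes, which follicle cells express, summed to 6.96 to 18.7 CPM in CCM flies at week 3. It summed to 3.49 to 18.2 CPM in control flies at week 3, 8.43 to 13.7 CPM in CCM flies at week 2 and 9.05 to 21.3 CPM in control flies at week 2.

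The 37 genes spanned a wide range of levels. Per kilobase of exon, the mean level in control flies at week 2 lay between 0.63 CPM per kb for bgcn and 157 CPM per kb for me31B, with tral next to the top at 123 CPM per kb. Me31B is a DEAD-box helicase that represses maternal mRNAs and Tral is its Sm-like partner. The summed level of the 37 genes was 1170 to 1380 CPM in CCM flies at week 3, 1380 to 1890 CPM in control flies at week 3, 2360 to 3110 CPM in CCM flies at week 2 and 2320 to 5480 CPM in control flies at week 2. The widest group was therefore control flies at week 2, where sample C held 5480 CPM.

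**Figure D1:**
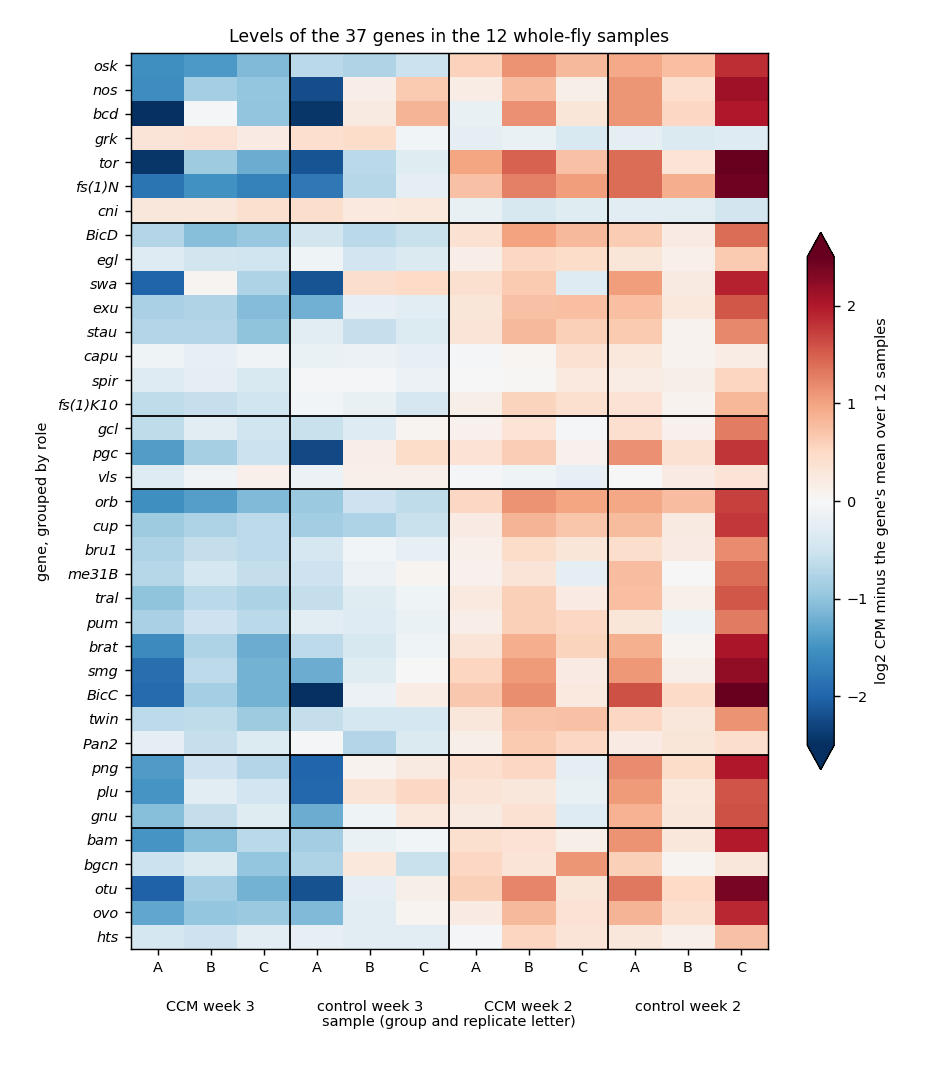
Heatmap of the 37 genes (down the page, grouped by role) in the 12 samples (across, by group and replicate letter), coloured by log2 CPM minus the gene's mean over the 12 samples. Most genes are blue in the 6 week 3 samples and red in the 6 week 2 samples, with grk and cni the other way round, and sample C of control week 2 and sample A of control week 3 differ from their fellow replicates.

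The comparison of week 3 with week 2 asks how the RNAs changed with a further week on each schedule. In CCM flies 33 of the 37 genes fell and 2 rose, against a background in which 29.6% of 12348 features fell and 26.4% rose. In control flies 28 of the 37 genes fell and 2 rose, against a background in which 17.3% of 12200 features fell and 14.0% rose. All 28 genes that fell in control flies also fell in CCM flies, and the 2 that rose, grk and cni, were the same on both schedules. The median log2 fold change of the 37 genes was -1.30 in CCM flies, where it was -0.03 over all features tested, and -1.24 in control flies, where it was also -0.03 over all features. In CCM flies the 3 week 3 samples lay below the 3 week 2 samples for 31 of the 37 genes, against 30.2% of all features, and in control flies for 27 of the 37, against 21.4% of all features.

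Among the localized determinants and axis signals, osk, whose protein assembles the germ plasm at the posterior of the oocyte, gave 28.1, 30.1 and 37.7 CPM in CCM flies at week 3 and 122, 178 and 143 CPM in CCM flies at week 2. In control flies it gave 50.9, 48.5 and 55.9 CPM at week 3 and 157, 137 and 294 CPM at week 2. Neither pair of groups overlapped. Fold changes are edgeR estimates, whereas the SE beside them is that of the difference of mean log2 CPM. The log2 fold change of osk was -2.27 ± 0.20 (SE) in CCM flies (edgeR adjusted p = 0.00101) and -1.92 ± 0.34 in control flies (edgeR adjusted p = 0.027). The gene lies on chromosome 3R at 8935126 to 8938395, plus strand, in the BDGP6 annotation.

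The RNA of nos, a translational repressor that specifies the abdomen, gave 12.1, 19.6 and 18 CPM in CCM flies at week 3 and 40.2, 60.3 and 39.3 CPM in CCM flies at week 2. It fell in CCM flies, with a log2 fold change of -1.55 ± 0.29 (edgeR adjusted p = 0.00206). In control flies nos gave 7.59, 39.8 and 55.5 CPM at week 3 and 76.1, 47.4 and 154 CPM at week 2, and these groups overlapped. The log2 fold change in control flies was -1.43 ± 1.01, which did not pass the test (edgeR adjusted p = 0.151).

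The anterior determinant bcd gave 3.38, 18.9 and 9.82 CPM in CCM flies at week 3 and 17.2, 43.2 and 23.9 CPM in CCM flies at week 2. It fell in CCM flies by the test although its groups overlapped (log2 fold change -1.44 ± 0.82, edgeR adjusted p = 0.0737). In control flies bcd gave 3.6, 22.8 and 35.2 CPM at week 3 and 41.8, 27.9 and 77.6 CPM at week 2, and the change of -1.26 ± 1.09 did not pass (edgeR adjusted p = 0.206). For bcd and nos alike, sample A was the lowest of the control week 3 samples by a wide margin.

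The terminal system takes its signal through Torso, a receptor tyrosine kinase translated from maternal tor mRNA, and needs the eggshell protein encoded by fs(1)N. The gene fs(1)N gave 2.84, 3.52 and 3.12 CPM in CCM flies at week 3 and 16.9, 24.3 and 20.9 CPM in CCM flies at week 2, so the groups were well apart. Its log2 fold change of -2.76 ± 0.18 was the lowest of the 37 genes in CCM flies (edgeR adjusted p = 0.00101). In control flies it gave 2.93, 6.20 and 8.54 CPM at week 3 and 26.7, 18.9 and 54.2 CPM at week 2, a log2 fold change of -2.5 ± 0.64 (edgeR adjusted p = 0.027). The tor RNA fell by 2.53 on the log2 scale in CCM flies and by 2.68 in control flies. Its means were 1.41 CPM at week 3 and 7.93 CPM at week 2 in CCM flies, and 2.06 CPM at week 3 and 13.1 CPM at week 2 in control flies.

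The signal that polarizes the oocyte, grk, went the other way. It encodes a ligand of the epidermal growth factor receptor and gave 51.3, 52.6 and 47.4 CPM in CCM flies at week 3, above the 35.1, 36.6 and 31.6 CPM in CCM flies at week 2. In control flies it gave 54.7, 56.6 and 39.2 CPM at week 3, above the 35.0, 31.8 and 32.7 CPM at week 2. The log2 fold change of grk was 0.50 ± 0.08 in CCM flies (edgeR adjusted p = 0.00583) and 0.60 ± 0.17 in control flies (edgeR adjusted p = 0.0457). On chromosome 2L at 8431086 to 8433598, minus strand, the exons of grk share 212 bases, 12.3% of their length, with exons of Akap200 on the other strand. The deposited notes do not say whether strand was used in the counting. Reads that matched grk and another gene were counted for 1 merged feature, which was left out of the grk values.

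The gene cni, which encodes a cargo receptor that exports the Gurken protein from the endoplasmic reticulum, also rose, to 66.0 ± 3.07 CPM (SD, n = 3) in CCM flies at week 3, against 42.8 ± 3.29 CPM in CCM flies at week 2. In control flies cni gave 65.7 ± 4.72 CPM at week 3 and 41.7 ± 3.03 CPM at week 2. The replicates of cni were close to each other in every group.

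Of the 8 genes of mRNA transport and localization, 7 fell in CCM flies and the same 7 in control flies. The shares of all features that fell were 29.6% in CCM flies and 17.3% in control flies. BicD and egl encode the adaptor that links mRNAs to the dynein motor. BicD fell to 15.8 ± 1.77 CPM in CCM flies at week 3, against 49.9 ± 10.7 CPM at week 2, and egl fell to 56.1 ± 3.92 CPM, against 98.6 ± 12.8 CPM. Their log2 fold changes were -1.71 and -0.86 in CCM flies and -1.39 and -0.68 in control flies. The RNA-binding protein gene stau and the bcd-localization gene exu fell by 1.45 and 1.54 in CCM flies and by 1.11 and 1.46 in control flies. The smallest of these called changes were those of the actin nucleators capu and spir, at -0.32 and -0.47 in CCM flies and at -0.36 for both in control flies.

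The gene fs(1)K10, which is needed to place grk mRNA, gave 10.0, 10.4 and 10.9 CPM in CCM flies at week 3 and 17.2, 22.6 and 20.4 CPM in CCM flies at week 2. In control flies it gave 14.7, 13.5 and 11.5 CPM at week 3 and 19.8, 16.5 and 27.4 CPM at week 2. It fell on both schedules, by 0.99 in CCM flies (edgeR adjusted p = 0.00179) and by 0.68 in control flies (edgeR adjusted p = 0.062). The exception among the transport genes was swa, an anchor of bcd mRNA, at 8.33, 35.1 and 19.4 CPM in CCM flies at week 3 and 44.2, 52.3 and 26.5 CPM in CCM flies at week 2 (log2 fold change -1.01 ± 0.67, edgeR adjusted p = 0.114). In control flies swa gave 7.42, 45.4 and 47.0 CPM at week 3 and 68.4, 38.9 and 126 CPM at week 2, with wide overlap on both schedules.

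Of the 3 genes of the germ plasm and primordial germ cells, 2 fell in CCM flies and 1 in control flies. Over all features 29.6% fell in CCM flies and 17.3% in control flies, and 3 genes are too few to set against these shares. The gene gcl, required to form the primordial germ cells, fell on both schedules, by 0.64 in CCM flies and by 0.94 in control flies. The gene pgc, whose peptide silences transcription in those cells, fell in CCM flies (log2 fold change -1.30 ± 0.29), while in control flies its change of -1.36 ± 0.95 did not pass (edgeR adjusted p = 0.139). Some 46.9% of the exon bases of pgc are shared with T3dh on the other strand. Reads counted for a merged feature of pgc were likewise left out of its values. The gene vls, a partner of Tudor and Vasa, gave 17.7 ± 2.73 CPM in CCM flies at week 3 and 17.4 ± 1.05 CPM in CCM flies at week 2, and 19.3 ± 2.01 CPM in control flies at week 3 and 21.3 ± 2.68 CPM in control flies at week 2, and was called in neither comparison.

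All 11 genes of translational control and deadenylation fell on both schedules, where 29.6% of all features fell in CCM flies and 17.3% in control flies. The gene orb encodes a cytoplasmic polyadenylation element binding protein that activates osk and grk translation. It gave 16.7, 18.6 and 22.3 CPM in CCM flies at week 3, below the 69.2, 105 and 94.7 CPM in CCM flies at week 2, and 25.3, 33.6 and 31.0 CPM in control flies at week 3, below the 94.0, 81.5 and 157 CPM in control flies at week 2. Its log2 fold change was -2.28 ± 0.22 in CCM flies (edgeR adjusted p = 0.00101) and -1.88 ± 0.31 in control flies (edgeR adjusted p = 0.027). The gene lies on chromosome 3R at 23260610 to 23280856, minus strand.

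The repressors of osk translation fell as well. The gene bru1, whose RNA-binding protein holds osk silent, fell by 1.02 in CCM flies and by 0.89 in control flies. The gene cup, which encodes a binding protein of the cap-binding factor eIF4E, fell by 1.43 in CCM flies and by 1.79 in control flies. The counts of cup came from a feature merged with CG34310, which shares its annotated exons, and those of BicC from a feature merged with CG45084, so the partners cannot be separated. The helicase gene me31B fell by 0.72 and its partner tral by 1.23 in CCM flies, and by 1.0 and 1.24 in control flies.

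Further repressors act with Nos or on nos mRNA. The gene pum encodes the RNA-binding partner of Nos. It gave 45.4, 55.0 and 49.9 CPM in CCM flies at week 3 and 88.8, 120 and 113 CPM in CCM flies at week 2, and 65.3, 63.5 and 70.5 CPM in control flies at week 3 and 97.4, 72.6 and 194 CPM in control flies at week 2. The groups were apart on both schedules, though narrowly in control flies. The log2 fold change of pum was -1.15 ± 0.15 in CCM flies (edgeR adjusted p = 0.0012) and -0.87 ± 0.42 in control flies (edgeR adjusted p = 0.0913). The partner brat fell by 1.83 in CCM flies and by 1.59 in control flies, and smg, which recruits the deadenylase to nos mRNA in the embryo, fell by 1.85 in CCM flies and by 1.81 in control flies.

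The catalytic deadenylase gene twin, which encodes the CCR4 subunit, gave 36.0, 36.5 and 30.5 CPM in CCM flies at week 3 and 69.4, 93.6 and 94.1 CPM in CCM flies at week 2, and 37.7, 42.1 and 41.8 CPM in control flies at week 3 and 80.8, 68.9 and 123 CPM in control flies at week 2. Its log2 fold change was -1.37 ± 0.17 in CCM flies (edgeR adjusted p = 0.00105) and -1.16 ± 0.25 in control flies (edgeR adjusted p = 0.027). The gene BicC, whose protein recruits that deadenylase, fell by 2.05 in CCM flies and by 2.24 in control flies, although its control week 3 samples ran between 9.75 and 74.9 CPM. Pan2, the catalytic subunit of the other main deadenylase, changed least in control flies within this role, at -0.67, and fell by 0.87 in CCM flies.

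The PNG kinase complex is switched on at egg activation and alters the translation of many maternal mRNAs, with png as the kinase and plu and gnu as its partners. The gene png gave 3.87, 7.19 and 6.25 CPM in CCM flies at week 3 and 13.8, 14.7 and 8.89 CPM in CCM flies at week 2, and 2.6, 11 and 12.1 CPM in control flies at week 3 and 23.3, 14.3 and 41.2 CPM in control flies at week 2. Its log2 fold change was -1.16 ± 0.35 in CCM flies (edgeR adjusted p = 0.0137) and -1.62 ± 0.84 in control flies (edgeR adjusted p = 0.0783). The groups did not overlap on either schedule, and the lowest sample of png was again sample A of control week 3.

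Per kilobase of exon, plu had the lowest level of the complex in control flies at week 2, 8.75 CPM per kb against 23.6 for png and 46.2 for gnu. It gave 0.931, 2.13 and 1.84 CPM in CCM flies at week 3 and 3.24, 3.15 and 2.28 CPM in CCM flies at week 2, and 0.664, 3.23 and 3.68 CPM in control flies at week 3 and 5.40, 3.09 and 7.68 CPM in control flies at week 2. Its fewest counts in a sample were 12. It fell in CCM flies (-0.87 ± 0.40) but was not called in control flies (-1.10 ± 0.87, edgeR adjusted p = 0.185). The gene gnu gave 10.1, 14.0 and 17.1 CPM in CCM flies at week 3 and 24.6, 27.5 and 16.8 CPM in CCM flies at week 2, and 8.97, 19.7 and 25.4 CPM in control flies at week 3 and 38.7, 25.5 and 63.8 CPM in control flies at week 2. It fell on both schedules, by 0.80 in CCM flies and by 1.24 in control flies, and its CCM groups overlapped at 16.8 and 17.1 CPM.

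The genes of germline stem cell and cyst differentiation fell too, all 5 in CCM flies and 4 in control flies. The shares of all features that fell were 29.6% and 17.3%. The gene bam acts in germline differentiation in both the ovary and the testis. It gave 1.52, 2.04 and 2.68 CPM in CCM flies at week 3 and 5.64, 5.48 and 4.73 CPM in CCM flies at week 2. In control flies it gave 2.33, 3.81 and 4.05 CPM at week 3 and 9.25, 5.15 and 16.7 CPM at week 2. Its log2 fold change was -1.40 ± 0.25 in CCM flies (edgeR adjusted p = 0.00366) and -1.61 ± 0.55 in control flies (edgeR adjusted p = 0.0428). Its partner bgcn gave 1.42, 1.62 and 1.06 CPM in CCM flies at week 3 and 2.96, 2.60 and 4.47 CPM in CCM flies at week 2, and 1.22, 2.49 and 1.41 CPM in control flies at week 3 and 3.15, 2.17 and 2.53 CPM in control flies at week 2. It fell in CCM flies (-1.32 ± 0.29) and was the gene not called in control flies (-0.61 ± 0.35, edgeR adjusted p = 0.21).

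The ovarian gene otu and the germline transcription factor gene ovo fell by 2.08 and 1.59 in CCM flies and by 2.06 and 1.54 in control flies. The gene hts, which encodes adducin-like proteins of the fusome that joins the cells of a cyst, fell by 0.76 in CCM flies and by 0.66 in control flies. It is also expressed outside the germline, and it averaged 86.4 ± 7.51 CPM in CCM flies at week 3 and 141 ± 27.1 CPM in CCM flies at week 2.

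**Figure D2:**
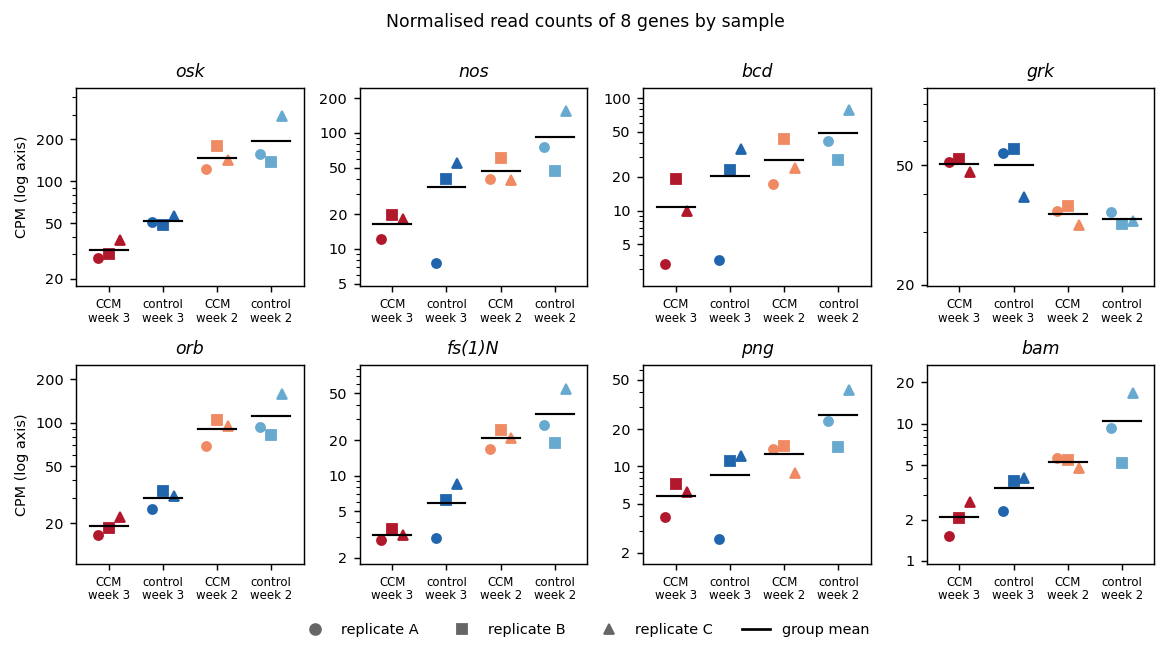
CPM on a log axis (vertical) in each sample, by group (horizontal), for 8 genes. Symbols mark the replicate letter and lines the group means, and the week 3 samples of osk, orb and fs(1)N lie below all their week 2 samples while those of grk lie above.

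**Figure D3:**
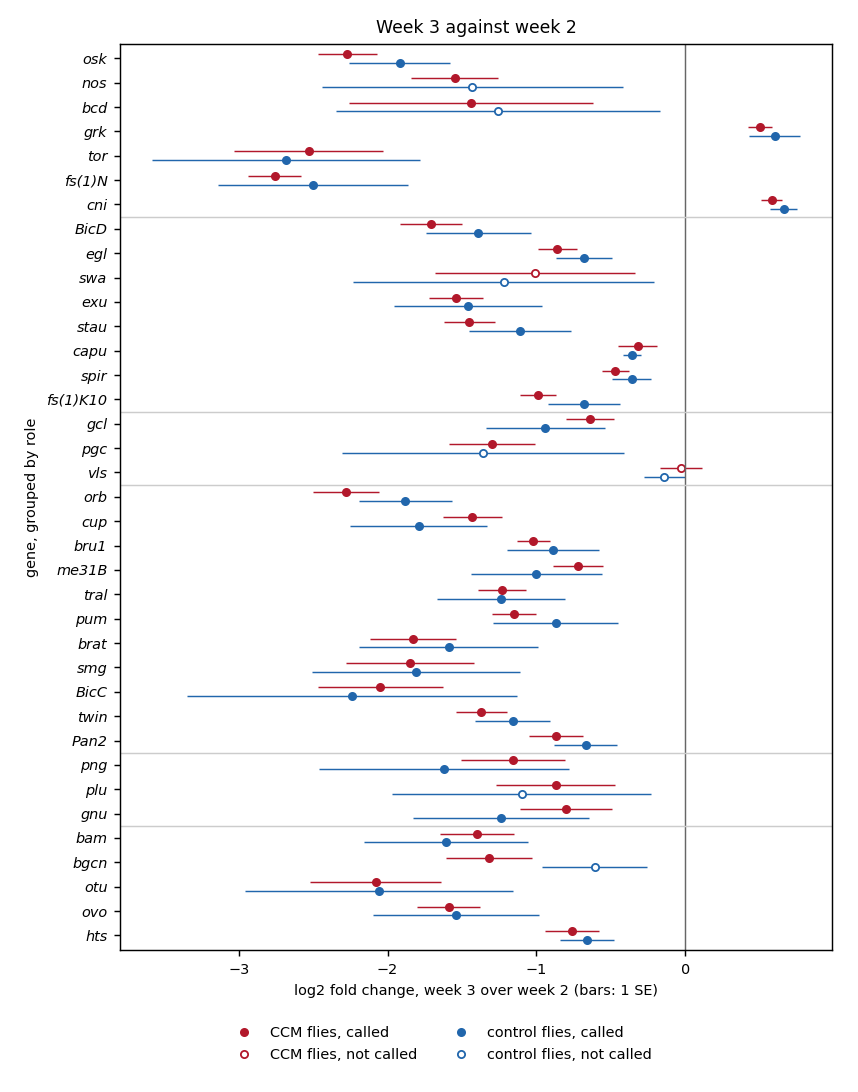
Log2 fold change of week 3 over week 2 (horizontal) for the 37 genes (down the page) in CCM flies (red) and control flies (blue). Bars are 1 SE of the difference of mean log2 CPM, and filled points were called at adjusted p under 0.1. Only grk and cni lie right of 0, and fs(1)N at -2.76 is furthest left in CCM flies and tor at -2.68 in control flies.

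In control flies the number of calls in either direction, 30 of the 37 genes and 3821 of all 12200 features, changed with single samples, for the 37 genes and for all features alike. Leaving out control week 3 sample A left 10 of the 37 genes called and 10.7% of all features, and leaving out control week 2 sample A left 16 genes and 10.7% of features. Leaving out control week 3 sample B left 17 genes and 19.4% of features, and leaving out sample C of that group left 17 genes and 12.9% of features. Leaving out control week 2 sample B, the lowest of its group for 34 of the 37 genes, gave more calls, 34 genes and 40.1% of features. When control week 2 sample C was left out, 21 genes and 2528 of 12313 features were called. The median log2 fold change of the 37 genes was then -0.82. Without both control week 2 sample C and control week 3 sample A, a pair chosen after the data were seen, 15 genes were called, 14 of them lower, with 12.2% of features, and the median log2 fold change of the 37 genes was -0.64. In CCM flies 32 to 35 genes were called whichever sample was left out. Over all features the calls there ran from 5413 of 12439 to 6788 of 12469, so they too stayed many.

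Exonic length moved with these results. The 37 genes are long, with a median exonic length of 4051 bases against 1768 for single-gene features, and 21 of them had lengths of the longest class when single-gene features were divided into 4 classes of equal size. Over all features of that longest class the median log2 fold change was -0.78 in CCM flies and -0.53 in control flies, and over the shortest class it was 0.27 in CCM flies and 0.22 in control flies. With each sample's trend on length removed, 27 genes fell and 5 rose in CCM flies, against 23.8% and 26.3% of all features, and 21 fell and 2 rose in control flies, against 13.8% and 13.3%, with medians of -0.82 in CCM flies and -0.89 in control flies.

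The direction turned for some long genes. In CCM flies capu, spir and hts became called higher, at 0.62, 0.50 and 0.66, and bru1 and pum went to 0.10 and 0.28 without a call. In control flies capu, spir, hts and pum turned to 0.20, 0.23, 0.12 and 0.01 without a call. The short genes of the PNG kinase complex had larger falls with the trend removed, at -1.35 for png, -1.08 for plu and -1.0 for gnu in CCM flies, and osk stayed at -2.10 in CCM flies and -1.80 in control flies.

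Other genes of the same pathways gave mixed counts. Over all features 29.6% fell and 26.4% rose in CCM flies, and 17.3% fell and 14.0% rose in control flies. Of 16 other germ plasm and ribonucleoprotein genes, 9 fell and 3 rose in CCM flies and 6 fell and 1 rose in control flies. Among them wisp, a cytoplasmic poly(A) polymerase active in late oocytes, fell by 2.77 in CCM flies and by 2.35 in control flies, and aub, a germline Piwi protein gene, fell by 1.53 in control flies. Of 14 other genes of the CCR4-NOT, PAN and decapping machinery, 9 fell and 3 rose in CCM flies and 4 fell in control flies, with the scaffold gene Not1 at -2.04 in CCM flies and -1.05 in control flies. Of 14 other germline cyst and egg activation genes, 11 fell and 1 rose in CCM flies and 6 fell and 1 rose in control flies, with the mitotic kinase gene polo at -1.95 in CCM flies and -1.68 in control flies. With each sample's length trend removed, 6 of the germ plasm and ribonucleoprotein genes were called lower and 6 higher in CCM flies, and 4 lower and 3 higher in control flies, and their median log2 fold change of -0.86 in CCM flies became 0.07. The deadenylation and decapping genes then gave 8 lower and 3 higher in CCM flies and 4 lower in control flies, and the cyst and egg activation genes 8 lower and 1 higher in CCM flies and 7 lower and 2 higher in control flies.

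Of the 14 maternal dorsoventral and terminal genes tested, 7 fell and 2 rose in CCM flies and 8 fell in control flies, against the same shares of all features. The receptor gene Tl was at -2.10 in CCM flies and -1.64 in control flies. Eggshell genes were mostly below the filter, and none of the 4 tested in CCM flies or the 3 tested in control flies was called in edgeR. Their smallest unadjusted p belonged to the chorion gene Cp7Fa, at 0.229 in CCM flies and 0.0604 in control flies.

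Markers of other tissues moved as well. The yolk protein genes Yp1, Yp2 and Yp3 of fat body and follicle cells summed to 1580 to 4100 CPM in CCM flies at week 3 and 6230 to 9170 CPM in CCM flies at week 2, and to 1940 to 3070 CPM in control flies at week 3 and 5220 to 6910 CPM in control flies at week 2, and all 3 were called lower on both schedules. Of 12 testis genes 6 fell in CCM flies and 3 in control flies, where 29.6% and 17.3% of all features fell. Of 8 neuronal genes matched, 7 fell in CCM flies and none in control flies. Of 7 accessory gland genes 1 fell and 1 rose in CCM flies and 3 rose in control flies. The shares of all features that rose were 26.4% in CCM flies and 14.0% in control flies. With the length trend removed, 9 testis genes were called lower in CCM flies and 10 in control flies, while 4 neuronal genes were called lower and 2 higher in CCM flies and 2 higher in control flies. Over all features 23.8% were then called lower in CCM flies and 13.8% in control flies, and 26.3% and 13.3% were called higher. The part of these tissues in the changes of the 37 genes was not tested.

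At week 3 the comparison of CCM with control flies asks how these RNAs differed between schedules. Of the 37 genes 34 had a negative log2 fold change, with a median of -0.42 where all features had a median of 0.00, but no gene was called in edgeR without a replicate term, where 0.0164% of 12208 features were called. At an unadjusted p under 0.05, 13 of the 37 genes were lower and none higher, where 12.0% of all features passed in either direction. DESeq2 called 6 of them lower (osk, orb, bru1, tral, pum and brat), against 1.74% of all features.

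At week 3 same-letter samples deviated from their group means in correlated ways (0.184 to 0.492 across genes), so the letter was also entered as a block. That choice was made from these same data. The labels give the letters no meaning, and CCM sample A correlated slightly more with control sample B (0.219). With the block 12 of the 37 genes were called lower and none higher, against 6.26% of all features called lower. They were osk, BicD, stau, spir, orb, bru1, me31B, tral, pum, brat, smg and ovo, with edgeR adjusted p between 0.0206 and 0.0908. By role, 7 of the 11 genes of translational control were among them, 3 of the 8 transport genes, 1 of the 7 determinants, 1 of the 5 cyst genes, and none of the PNG kinase complex or of the germ plasm genes. Over all features as for these genes, the number of calls changed with the pair left out. Each such fit held only the samples of the remaining letters, too few to tie the calls to particular pairs. Without the pair of letter A none of the 37 genes and 0.0% of features were called lower, without that of letter B none and 0.0824%, and without that of letter C 13 genes and 10.5%.

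The lowest p belonged to osk. Its 28.1, 30.1 and 37.7 CPM in CCM flies lay below the 50.9, 48.5 and 55.9 CPM in control flies, a 1.62-fold lower level in CCM flies with a log2 fold change of -0.70 ± 0.14. Its edgeR adjusted p was 0.182 without and 0.0206 with the replicate block. For orb the 16.7, 18.6 and 22.3 CPM in CCM flies lay below the 25.3, 33.6 and 31.0 CPM in control flies, and the log2 fold change was -0.64 ± 0.17, with an edgeR adjusted p of 0.19 without and 0.0297 with the block. For pum the 45.4, 55.0 and 49.9 CPM in CCM flies lay below the 65.3, 63.5 and 70.5 CPM in control flies, and the log2 fold change was -0.41 ± 0.09, with an edgeR adjusted p of 0.201 without and 0.0464 with the block.

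In all, 11 of the 37 genes had every CCM sample below every control sample at week 3, against 10.9% of all features. They were osk, BicD, stau, spir, fs(1)K10, orb, bru1, tral, pum, brat and twin, and 9 of them were among the 12 called with the block. The genes brat and smg, at -0.79 ± 0.29 and -0.72 ± 0.52, had the lowest log2 fold changes of the called translational repressors. In contrast grk gave 51.3, 52.6 and 47.4 CPM in CCM flies and 54.7, 56.6 and 39.2 CPM in control flies, a log2 fold change of 0.01 ± 0.18, and cni differed by 0.00 ± 0.07.

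Several of the largest differences at week 3 carried the largest errors. The log2 fold change was -1.04 ± 0.91 for nos, -0.92 ± 1.24 for bcd, -0.66 ± 1.06 for swa, -0.73 ± 0.89 for pgc and -0.79 ± 0.98 for BicC, and none was called with or without the block. These errors were larger than that of smg, at -0.72 ± 0.52. The gene smg was called with the block, but the errors were computed without it and do not measure the spread that the block test used. Each error belongs to the difference of mean log2 CPM. Where replicates differ widely, that difference need not equal the edgeR value printed beside the error. The cyst gene bam gave 1.52, 2.04 and 2.68 CPM in CCM flies and 2.33, 3.81 and 4.05 CPM in control flies, a log2 fold change of -0.71 ± 0.34 that did not pass either (edgeR adjusted p = 0.433 without and 0.118 with the block).

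Length moved with this difference too, with a median log2 fold change of -0.20 in the longest of the 4 length classes and 0.11 in the shortest. With the length trend removed as well as the block entered, 3 of the 37 genes stayed lower (osk, me31B and tral), against 2.28% of all features, and 1 was higher (capu), against 2.30%. The median of the 37 genes was then -0.30. The value of osk was -0.65 (edgeR adjusted p = 0.0168), whereas pum went to -0.02 and spir to 0.00.

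**Figure D4:**
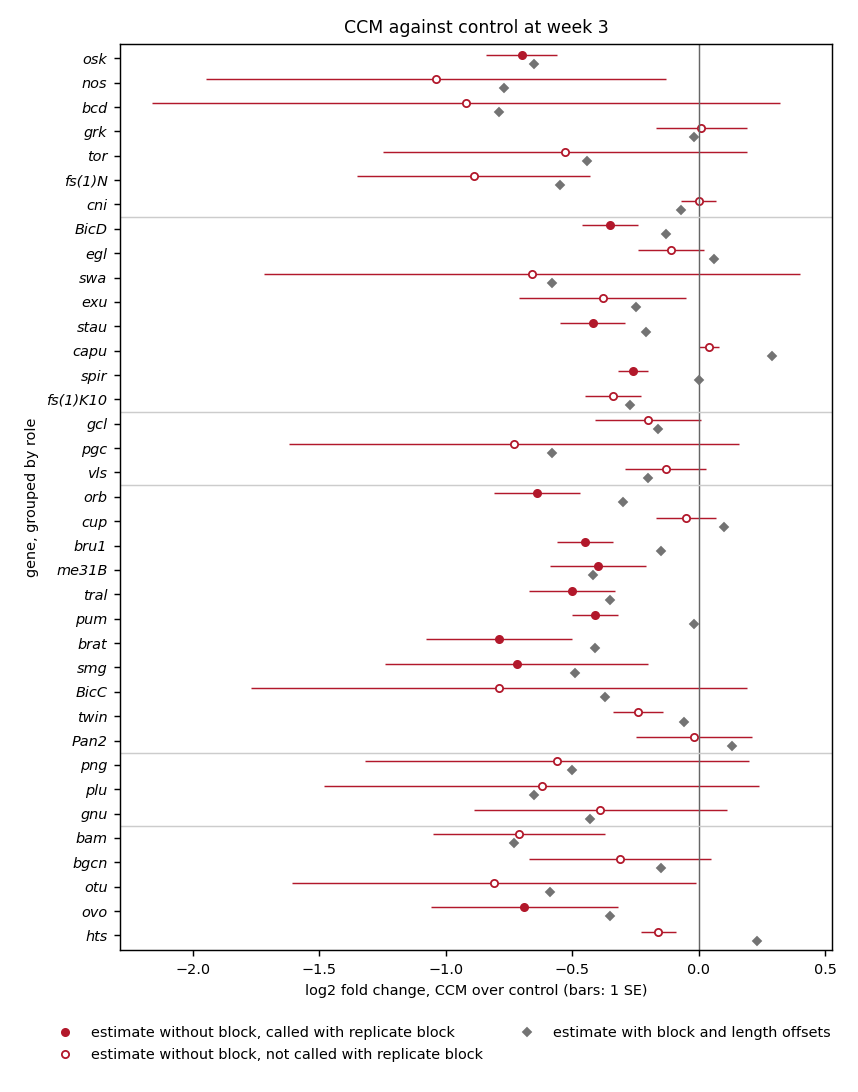
Log2 fold change of CCM over control flies at week 3 (horizontal) for the 37 genes (down the page). Bars are 1 SE of the difference of mean log2 CPM, computed without the block. Filled circles are the 12 genes called with the replicate block and grey diamonds the estimates with the length trend also removed, which lie nearer 0 for long genes such as pum and orb while osk stays at -0.65.

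At week 3 some of the pathway lists gained calls with the block, while their median log2 fold changes moved little. Over all features 6.26% were called lower with the block. Of 16 other germ plasm and ribonucleoprotein genes 7 were called lower with it and none without, with the hnRNP gene sqd at -0.59 and the translational repressor gene Fmr1 at -0.67. Of 14 other germline cyst and egg activation genes 7 were called lower with the block, with Sxl, the sex determination gene that also acts in the female germline, at -0.61, and of 14 other deadenylation and decapping genes 4 were, with Not1 at -0.67. With the length trend also removed, 5 of the germ plasm and ribonucleoprotein genes were lower and 1 higher, and their median went from -0.28 to -0.14. Of the deadenylation and decapping genes 2 were then lower, and their median went from -0.22 to -0.13. Over all features 2.28% were then called lower and 2.30% higher. Of 13 maternal dorsoventral and terminal genes 1 was called lower, with a median of -0.02 over the list, and none of 4 eggshell genes was called, with a median of 0.40. The yolk protein genes gave log2 fold changes of -0.06 for Yp1, 0.18 for Yp2 and 0.24 for Yp3 and were not called. Among the neuronal genes 3 of 8 were called lower with the block, and their part in the result was not tested.

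At week 2 no gene was called between CCM and control flies by edgeR, with or without the replicate block, or by DESeq2. Of all 12356 features 0.0% were called in edgeR, 5.67% had an unadjusted p under 0.05, and DESeq2 called 7. At an unadjusted p under 0.05, 6 of the 37 genes were lower and none higher. The 3 lowest p belonged to the PNG kinase complex. The gene png gave 13.8, 14.7 and 8.89 CPM in CCM flies and 23.3, 14.3 and 41.2 CPM in control flies, a log2 fold change of -1.06 ± 0.50 (edgeR adjusted p = 0.712). The groups of png overlapped, and so did those of plu (-0.89 ± 0.41) and gnu (-0.88 ± 0.44).

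The week 2 median of the 37 genes was -0.44, where all features had a median of 0.02, and it was -0.06 when control week 2 sample C was left out. That sample held 294 CPM of osk, 154 CPM of nos and 157 CPM of orb, more than any other sample of the series. The only gene with every CCM sample below every control sample was vls, at 18.4, 17.5 and 16.3 CPM in CCM flies and 18.5, 21.6 and 23.8 CPM in control flies, where 7.61% of all features were so. Its log2 fold change was -0.28 ± 0.12.

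The test of whether the effect of CCM differed between week 3 and week 2 called none of the 37 genes in edgeR or DESeq2, and 0.0% of 12530 features in edgeR. DESeq2 called 1 feature, and 4.55% of features had an unadjusted p under 0.05 in edgeR. None of the 37 genes reached an unadjusted p under 0.05 either. The lowest p belonged to bgcn, with an interaction log2 value of -0.66 (edgeR adjusted p = 0.913), followed by orb at -0.33 and fs(1)K10 at -0.25.

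The replicates of a group did not agree equally for all 37 genes. In control flies at week 3, sample A held the lowest level of 25 of the 37 genes, where 26.9% of all features had their lowest level in that sample. For 13 of them (nos, bcd, tor, fs(1)N, swa, pgc, smg, BicC, png, plu, gnu, otu and ovo) its level was under 0.5 of the mean of the other 2 samples. The ratio was 0.124 for bcd, 0.144 for BicC, 0.159 for nos, 0.161 for swa and 0.169 for pgc. The other 24 genes had ratios of 0.514 to 1.40 in the same sample, with 0.975 for osk, 0.784 for orb and 1.13 for stau.

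This left the determinants in unequal proportions. The CPM of osk was 6.71 times that of nos in control week 3 sample A, against 1.22 in sample B and 1.01 in sample C. In CCM flies at week 3 the ratio of osk to nos was 2.33, 1.54 and 2.09 in samples A, B and C. In CCM week 3 sample A, 6 genes (bcd, tor, swa, smg, plu and otu) were under 0.5 of the mean of the other 2 samples, and all 6 were among the 13. These genes were singled out after their values were seen, and the split was not tested. The share of all features under 0.5 in sample A of either week 3 group was not counted.

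In control flies at week 2, sample C held the highest level of 33 of the 37 genes, where 43.5% of all features were highest in that sample. Its level was 2.00 times the mean of the other 2 samples for osk, 2.5 times for nos and 3.48 times for tor, but 0.98 times for grk and 1.01 times for capu. Replicates differed at least 2-fold for 7 genes in CCM flies at week 3, 14 in control flies at week 3, 1 in CCM flies at week 2 and 24 in control flies at week 2. The share of all features that did so was not counted. Over all features, samples B and C of control week 2 also differed most (chi-square per degree of freedom 101). Other pairs of replicates gave 18.7 to 49.3, so a wide spread was not particular to these genes.

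**Figure D5:**
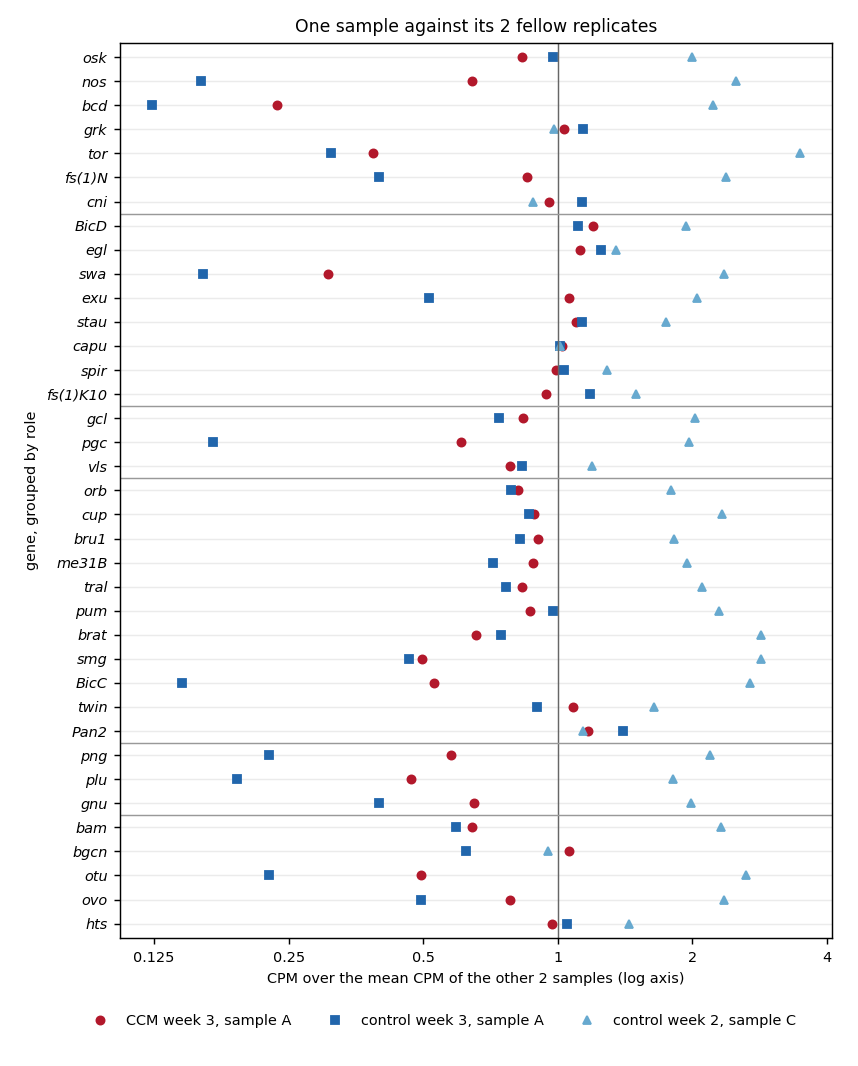
CPM in a sample over the mean CPM of its 2 fellow replicates (horizontal, log axis) for the 37 genes (down the page): CCM week 3 sample A (circles), control week 3 sample A (squares) and control week 2 sample C (triangles). Squares for bcd, BicC, nos, swa and pgc lie between 0.124 and 0.169 while those for osk, pum and stau lie between 0.974 and 1.13, and most triangles lie right of 1.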

How the data were processed

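Whole-fly RNA of 12 samples was sequenced as paired-end reads. The authors deposited raw counts per protein-coding gene, made by STAR alignment to dm6 and MMquant counting against Ensembl release 87. A read that matches several genes is counted there for a merged feature. Samples were grouped by the labels' schedule and week. Each of the 37 genes was measured by its own or merged feature with the most counts. Positions, lengths and overlaps came from BDGP6 release 115.

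In R 4.3.3, features were kept with filterByExpr (minimum count 10), scaled by TMM and tested with edgeR 4.0.16 (quasi-likelihood, Benjamini-Hochberg adjustment, adjusted p under 0.1) on the 6 samples of each pair of groups, and on all 12 for the interaction. The procedure was tested on simulated data. SE came from log2 CPM with a prior count of 0.5, without the replicate letter. It is the error of the difference of group means on that scale, not of the edgeR estimate. Tables and figures used Python 3.11.15. Alternatives were DESeq2 1.42.0, other scaling, no filter, each sample left out, the replicate letter as a block, and offsets removing each sample's lowess trend (span 0.3) on length.

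The labels give no meaning for the letters. Same-letter samples deviated together at week 3 (correlations across genes 0.184 to 0.492), so the block is given there, although CCM sample A correlated slightly more with control sample B (0.219). They did not in the other comparisons. The study calls the 3 samples of a group biological replicates, each a separate collection of flies, and p-values measure the spread between them. The 37 genes and the lists were chosen with earlier results of these data known. Values of every sample are given for osk, nos, bcd, grk, orb, png, bam and the 3 genes with the smallest p in each comparison, and up to 3 genes by smallest p from each other list. No sequences were printed, since none were given in the references used.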

Additional observations from a re-analysis of the deposited data

How the results depend on the processing

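Counts of called genes kept within 1.5 times of the value given under RLE scaling, no filter, merged features added, single-gene features, all 12 samples in one fit and a threshold of 0.05, with the exceptions here. At week 3, CCM against control, none of the 37 genes was called in edgeR, against 6 with DESeq2, 12 with the replicate block, 4 with the length offsets and block, and 13 with the block and the letter C pair left out (added after seeing the data, as were the counts of 0 without the letter A or B pair). For week 3 against week 2 in control flies, 30 genes were called, 10 to 34 with 1 sample left out, and 15 without control week 2 C and control week 3 A (also added). The replicate block called 28 there, 35 in CCM flies and 0 at week 2, where the letters did not pair the samples. The length offsets, alone and then with the block, reversed capu (0.62, 0.62), hts (0.66, 0.67), spir (0.50, 0.50), pum (0.28, 0.28) and bru1 (0.10, 0.10) in CCM flies, and capu (0.20, 0.21), spir (0.23, 0.23), hts (0.12, 0.12) and pum (0.01, 0.02) in control flies. The median of the 37 genes in CCM flies, -1.30, went to -0.82 with the offsets and to -0.80 with the block as well. The offsets remove a trend on length by construction. Why the samples differ in that trend was not tested. Depth was not the limit for most genes, but plu had 12 counts and tor 14 in their lowest samples.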
